A study of Mus musculus with 2 samples.

Results

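Guanylate-binding proteins are encoded in mouse by 2 gene clusters, and the ELF3 and NFKB2 regions lying in these clusters are described here. CUT&RUN, an assay that uses an antibody to direct a nuclease to a chromatin protein and sequences the DNA it cuts free, had been performed on cultured primary renal tubular epithelial cells from wild-type mouse kidney. Both groups of the study are treated cells: 1 library profiled ELF3 and the other NFKB2, and the cells of both had received the inflammatory cytokines TNFα and IFNγ and carry the same batch label. No dose, time or age is given in the labels, and untreated cells and the IgG control were not analysed here, so cytokine-dependent and constant binding cannot be told apart. Members were all deposited regions overlapping the chromosome 3 window from 142180 to 142364 kb (184 kb, named for Gbp2, Gbp3, Gbp5 and Gbp7) or the chromosome 5 window from 105243 to 105462 kb (219 kb, named for Gbp4, Gbp6, Gbp8 and Gbp9). There were 19 of them among 82536 regions of both lists, namely 17 of 68319 ELF3 regions and 2 of 14217 NFKB2 regions. The chromosome 3 window held 10 ELF3 regions and 1 NFKB2 region, and the chromosome 5 window held 7 ELF3 regions and 1 NFKB2 region. No expression was measured, so the cell type is that of the labels. Each antibody has a single library, so no replicate error is known and no difference between antibodies was tested; all intervals given are 95% intervals for counting error only.

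Guanylate-binding proteins are large GTPases of the immune defence inside cells, and their genes are among those most strongly switched on by interferon-γ. They assemble on the vacuoles and surfaces of intracellular bacteria and parasites and promote inflammasome activation and the cell death that follows. Interferon-γ acts on such genes through promoter elements that include the GAS element and the ISRE, the latter bound by IRF factors. ELF3 is an epithelial factor of the ETS family, whose members bind DNA around a GGAA core. NFKB2 encodes p100, which is processed to the DNA-binding p52 of non-canonical NF-κB signalling, and NF-κB dimers bind κB elements.

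Both clusters are tandem arrays. In the RefSeq gene table of GRCm38.p6, the order on chromosome 3 is Gbp5, Gbp7, Gbp3, Gbp2b, Gbp2 and the pseudogene Gbp2-ps. On chromosome 5 it is Gbp8, Gbp9, Gbp4, Gbp10, Gbp6 and the transcribed pseudogene Gbp11. Gbp2b, Gbp10, Gbp11 and Gbp2-ps are thus neighbours of the 8 named genes. The 4 named genes on chromosome 3 span 141 kb in that table, which is less than the window. The 4 on chromosome 5 span 283 kb, which is more than the 219 kb window. At least part of a named gene, and possibly a whole one, thus lies outside the window unless the builds differ in this span. The outermost named genes in the table are Gbp8, of 41097 bp, and Gbp6, of 25170 bp. Counts, density and cover given for the chromosome 5 cluster are therefore those of the window, not of all 4 named genes. The deposited lists use sequence names found in GRCm39, while mm10 is the build in the submitters' processing notes. Positions are printed 1-based as the lists give them, and no region was assigned to a gene, exon, intron or promoter.

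The promoters of all members with a RefSeq promoter sequence are shown, and these are the named chromosome 3 genes. RefSeq promoter sequences were matched for 4 of the 8 members, with 5 start sites; Gbp4, Gbp6, Gbp8 and Gbp9 had no entry. The 250 bases before the start are given 5′ to 3′ on the gene's strand (plus strand of GRCm38.p6), with capitals marking every match on either strand to the ISRE (GAAA, any 2 bases, GAAA) or to a broad form of the κB element (GGG, any 5 bases, CC). For Gbp3, the first of its starts in the table is printed. The other Gbp3 start, not printed, has no match to the ISRE or to the broad κB element.
Gbp5: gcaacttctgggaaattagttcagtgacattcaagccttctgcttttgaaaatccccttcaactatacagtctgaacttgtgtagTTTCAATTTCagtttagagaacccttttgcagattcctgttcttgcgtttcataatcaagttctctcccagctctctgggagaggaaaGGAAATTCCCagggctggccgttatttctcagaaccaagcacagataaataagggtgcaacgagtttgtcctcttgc
Gbp7: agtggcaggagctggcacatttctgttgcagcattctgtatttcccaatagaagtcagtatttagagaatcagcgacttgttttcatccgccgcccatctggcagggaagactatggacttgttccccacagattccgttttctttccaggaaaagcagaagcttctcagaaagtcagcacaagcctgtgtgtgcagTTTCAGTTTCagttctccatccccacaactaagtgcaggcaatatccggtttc
Gbp3: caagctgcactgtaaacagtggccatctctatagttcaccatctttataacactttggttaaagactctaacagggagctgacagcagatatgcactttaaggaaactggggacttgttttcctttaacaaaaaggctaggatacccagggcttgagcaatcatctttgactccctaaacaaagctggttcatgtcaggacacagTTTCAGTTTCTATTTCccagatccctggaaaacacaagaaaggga
Gbp2: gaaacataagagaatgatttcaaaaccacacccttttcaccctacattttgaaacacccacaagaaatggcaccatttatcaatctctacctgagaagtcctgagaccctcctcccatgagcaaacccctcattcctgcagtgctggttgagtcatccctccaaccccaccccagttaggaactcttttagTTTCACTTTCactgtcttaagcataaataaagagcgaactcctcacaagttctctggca

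An ISRE match was found before a start of all 4 matched genes and at 4 of the 5 starts, while 2.98% of the 32851 promoters in the table hold one in the same length. The 4 genes lie in the same tandem array, so their promoters cannot be counted as independent draws from that background. Each match reads on the strand opposite to the gene, as TTTC, 2 bases and TTTC. In Gbp7, which takes part in oxidative defence of macrophages, TTTCAGTTTC began 53 bases before the start. Gbp3 had the same letters at 45 bases, overlapping TTTCTATTTC at 39 bases. Gbp2, which coats the vacuole of Toxoplasma, had TTTCACTTTC at 59 bases. Gbp5, a promoter of inflammasome assembly, had TTTCAATTTC farther away, at 165 bases. The GAS letters TTCNNNGAA, not capitalised above, were found at 2 of the 5 starts, against 7.02% of all promoters. They occurred in Gbp5 at 245 and 52 bases and in Gbp7 at 106 and 87 bases.

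Letters for the 2 profiled factors were searched in the same way. The broad κB letters were found at 1 of the 5 starts, that of Gbp5, where GGAAATTCCC began 77 bases before the start; 45.8% of all promoters hold such a match. The narrow κB letters GGGANTTCC were found at none of the 5 starts and in 1.43% of all promoters. They differ in length from the broad letters and are not a stricter form of them, so their absence does not grade the Gbp5 match. The letters GGAAG, an ETS core with 1 more base than GGAA, occurred at 1 of the 5 starts, that of Gbp7 at 145 bases, against 64.1% of all promoters. The κB match in Gbp5 did not overlap its ISRE match. These matches describe letters in the printed windows, and whether a region lies on them was not tested.

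ELF3 regions were denser than the average of autosomes and X in the chromosome 3 cluster, at the edge of the counting error, and close to it in the chromosome 5 cluster. The chromosome 3 window held 5.43 ELF3 regions per 100 kb (interval 2.61 to 9.99), and autosomes and X 2.66, a ratio of 2.04; the average lies just inside that interval. The chromosome 5 window held 3.20 per 100 kb (1.29 to 6.59), a ratio of 1.20, with the average well inside the interval. Among 13923 consecutive windows of 184 kb along autosomes and X, 16.9% had 10 or more ELF3 regions, with a median of 4 (quartiles 1 and 8). Among 11697 windows of 219 kb, 37.8% had 7 or more, with a median of 5 (1 and 9). ELF3 regions covered 8743 bp or 4.75% of the chromosome 3 window (mean width 874 bp) and 5332 bp or 2.43% of the chromosome 5 window (762 bp), against 1.83% of autosomes and X.

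NFKB2 density in both clusters was close to the average of autosomes and X, within wide counting intervals. The single region per window came to 0.543 per 100 kb on chromosome 3 (0.0138 to 3.03) and 0.457 on chromosome 5 (0.0116 to 2.54), against 0.553 on autosomes and X. A window of 184 kb held 1 or more NFKB2 regions in 40.4% of cases and a window of 219 kb in 43.8%. Because both NFKB2 regions were narrow, at 215 and 170 bp, they covered 0.117% and 0.0776% of the windows, less than the 0.282% of autosomes and X.

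**Figure D1:**
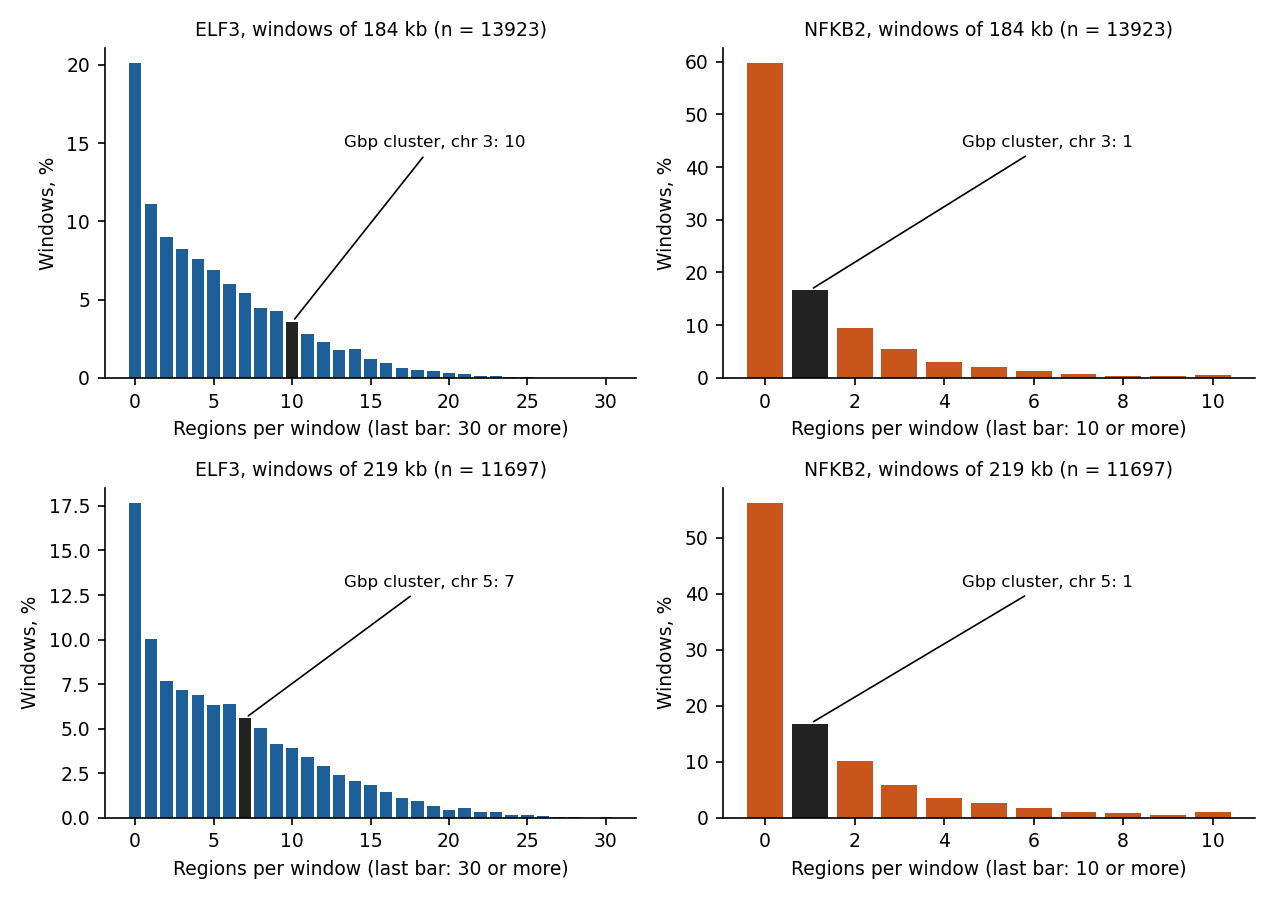
Regions per window over consecutive windows as long as each Gbp cluster, along autosomes and X, as a percentage of windows (vertical axis); the left panels are ELF3 and the right panels NFKB2. The black bar marks the number in the cluster itself, 10 and 7 for ELF3 and 1 and 1 for NFKB2. The 10 ELF3 regions on chromosome 3 lie above the upper quartile of 8, and the other numbers lie within the quartiles.

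The regions were unevenly spaced within the windows. On chromosome 3, neighbouring ELF3 summits were 2.81 to 60.1 kb apart with a median of 5.46 kb, and on chromosome 5 they were 2.65 to 139.5 kb apart with a median of 13.1 kb. Over all ELF3 regions the median distance was 13.8 kb (quartiles 5.49 and 35.1 kb). In the chromosome 3 window, 9 of the 10 ELF3 summits lay in the first 86.3 kb and the tenth at 146.4 kb from the lower edge. In the chromosome 5 window, 5 of the 7 lay in the first 59.2 kb, and the other two at 198.8 and 207.1 kb. Each window thus has a stretch without ELF3 summits across its middle, which takes 32.7% of the window on chromosome 3 and 63.7% on chromosome 5. These are the longest spacings of each window, and how often other windows hold such long ones was not counted.

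**Figure D2:**
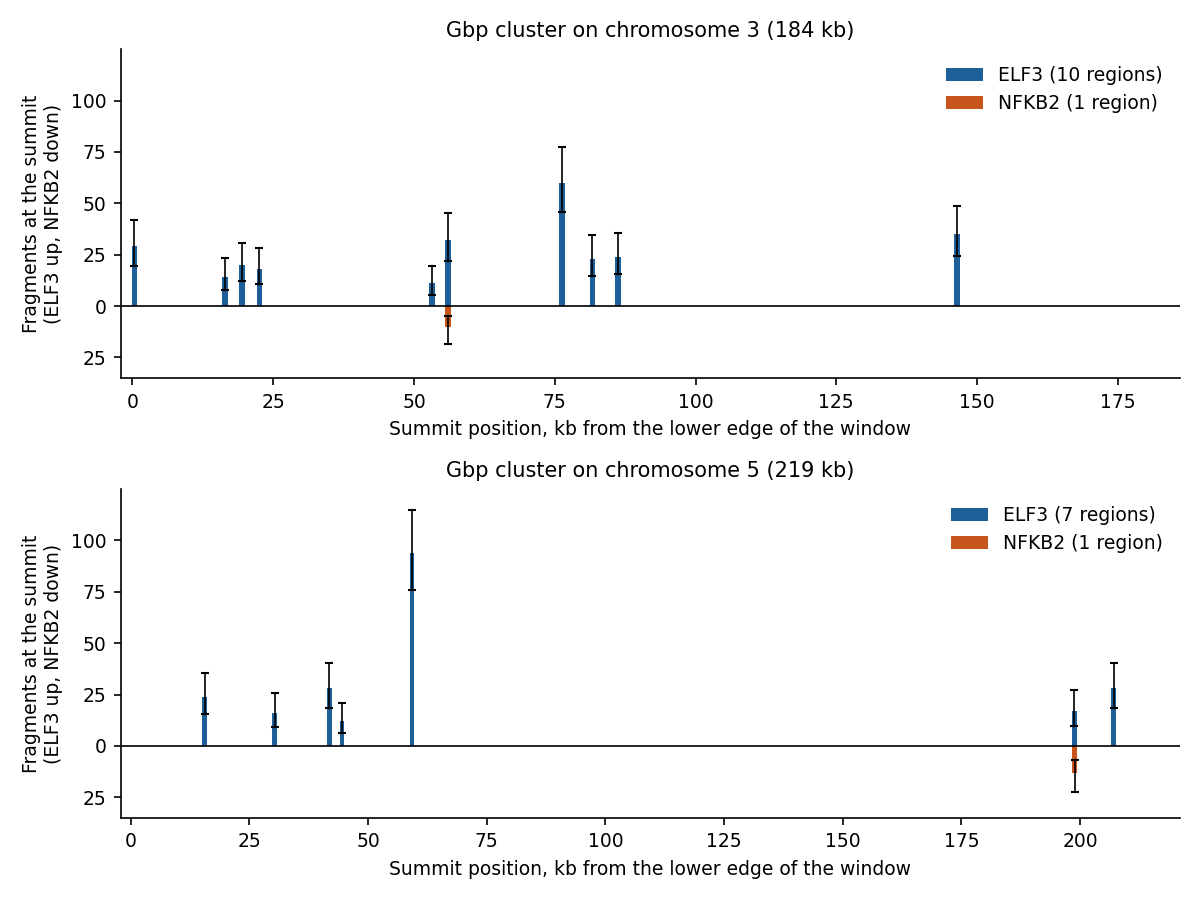
Fragments at each summit, the number of DNA fragments covering it (vertical axis, ELF3 up and NFKB2 down), by position of the summit in kb from the lower edge of the chromosome 3 and chromosome 5 windows (horizontal axis); bars are single regions and lines 95% Poisson intervals. The highest bars are the ELF3 region at 76.2 kb on chromosome 3 and that at 59.2 kb on chromosome 5, and NFKB2 appears at 56.0 and 198.9 kb.

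The strength of a region is given as fragments at its summit, the number of sequenced DNA fragments covering that base. This number was recovered from the deposited −log10 p and fold over local background, the latter defined with the processing. The strongest region of either cluster was an ELF3 region on chromosome 5, chr5:105301794-105303733, 1940 bp wide. It had 94 fragments at the summit (76.0 to 115), a deposited fold of 42.7 and a −log10 q of 136, the latter a deposited measure of confidence adjusted for the number of sites. Of all ELF3 regions, 1.75% had as many fragments or more. No NFKB2 region overlapped it. Among the 1196 ELF3 regions with 94 fragments or more, 20.4% lacked an NFKB2 region, and so did 21.7% of the 642 with the library's lowest local background, which this region also had.

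The other chromosome 5 regions were far weaker. The next were chr5:105284186-105284996 and chr5:105449897-105450234, each with 28 fragments (18.6 to 40.5) and a −log10 q of 26.0. Their interval lies wholly below that of the strongest region. They were followed by chr5:105257795-105258685 with 24 fragments (15.4 to 35.7) and chr5:105441260-105442015 with 17 (9.90 to 27.2). The other two regions had 16 and 12 fragments and −log10 q of 7.90 and 6.79. So 1 region stood apart in this cluster and 6 lay within a narrow range of 12 to 28 fragments.

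On chromosome 3 the leading ELF3 region was chr3:142255954-142256394, 441 bp wide, with 60 fragments (45.8 to 77.2), a fold of 27.4 and a −log10 q of 75.2. It ranked in the top 7.24% of the list by −log10 q and had no NFKB2 region. Of all ELF3 regions in the highest quintile of −log10 q, to which it belongs, 52.3% overlapped one. The widest member, chr3:142324553-142327186, followed with 35 fragments (24.4 to 48.7) over 2634 bp, on a background 1.47 times the lowest level. Next came chr3:142235883-142236695 with 32 fragments (21.9 to 45.2), chr3:142180274-142180460 with 29 (19.4 to 41.6) and chr3:142265439-142266639 with 24 (15.4 to 35.7). The other 5 had 11 to 23 fragments and −log10 q between 5.81 and 19.5. The interval of the leading region lies above those of all but the widest member.

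In strength, the 17 ELF3 members were close to the list from which they come. Their median was 24 fragments, 23.5 on chromosome 3 and 24 on chromosome 5, against 22 over all ELF3 regions (quartiles 14 and 36). More fragments than that median were found in 10 of 17, against 48.0% of the list. A −log10 q of 10 or more was reached by 12 of 17, against 66.0%. Their median width was 756 bp against 418 bp. Of the 17, 11 were wider than the list's median, against 49.9% of the list, and 4 exceeded 1000 bp, against 20.9%, so the share of the widest regions was near the background. These 4 were the strongest chromosome 5 region and 3 regions on chromosome 3, of 1201, 1569 and 2634 bp. Width and strength did not go together in every member. The narrowest region, of 187 bp at the lower edge of the chromosome 3 window, had 29 fragments, and the 1569 bp region had 23.

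**Figure D3:**
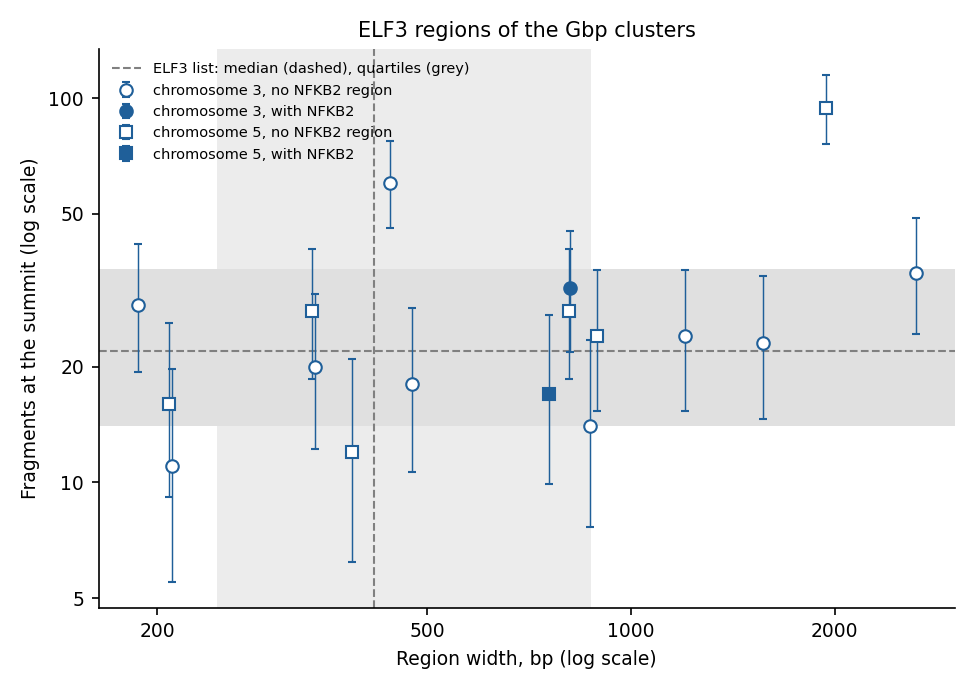
Width (horizontal axis, bp, log scale) and fragments at the summit (vertical axis, log scale, with 95% Poisson intervals) of the 17 ELF3 regions; circles are chromosome 3, squares chromosome 5, and filled symbols overlap an NFKB2 region. Dashed lines and grey bands are the median and quartiles of all ELF3 regions, and the filled symbols, at 32 and 17 fragments, lie inside the fragment quartiles of the list.

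The local background bears on how these values are read. The library's lowest level was found in 13 of 17 ELF3 members, against 70.8% of the list, and in both NFKB2 members. Of the 4 with a raised background, 3 were on chromosome 3. The highest was chr3:142199341-142199682, at 3.25 times the lowest level, where 20 fragments gave a fold of 4.22, the lowest among the members. The part of the raised background in its value was not tested.

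Both NFKB2 regions lay entirely within ELF3 regions. Of all NFKB2 regions, 96.8% overlap ELF3 by 1 bp or more, and the share lying entirely within ELF3 was not counted. On chromosome 3, NFKB2 was listed at chr3:142235940-142236154 with 10 fragments (4.80 to 18.4), a fold of 4.61 and a −log10 q of 2.87. Only 9.61% of the NFKB2 list had a lower −log10 q, so this is among its weakest entries. The ELF3 region around it had 32 fragments. The depth-adjusted NFKB2 over ELF3 ratio was 0.299 (0.131 to 0.624), and the NFKB2 summit lay 55 bp from the ELF3 summit, toward lower coordinates. The NFKB2 region took 26.4% of the ELF3 region's width.

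On chromosome 5, NFKB2 was listed at chr5:105441805-105441974 with 13 fragments (6.92 to 22.2), a fold of 5.86 and a −log10 q of 5.52. Of the NFKB2 list, 30.9% had a lower −log10 q. The ELF3 region around it, the fifth in strength in that window, had 17 fragments. The ratio was 0.732 (0.327 to 1.60), so equal depth-adjusted fragment numbers lie within the counting error. Fragments were counted at each factor's own summit, and the ratio is not adjusted for antibody efficiency. The summits were 129 bp apart, with NFKB2 toward higher coordinates, and NFKB2 took 22.5% of the ELF3 width. The intervals of both ratios overlap, and neither cluster can be placed above the other from them.

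Over all 13769 shared pairs, the median ratio was 0.388 (quartiles 0.272 and 0.561). Of these pairs, 31.0% had a lower ratio than the chromosome 3 pair and 86.3% a lower one than the chromosome 5 pair. Pairs exist only where NFKB2 was listed, which at the lowest background took at least 8 fragments. A weak ELF3 region, such as that on chromosome 5 with 17 fragments, can therefore enter only at a higher ratio. No comparison at equal ELF3 strength was made, so these shares do not grade the pairs. Summits lay within 100 bp in 75.5% of pairs, with a median distance of 41 bp (16 and 98), so the chromosome 3 pair falls inside the quartiles and the chromosome 5 pair outside. Both NFKB2 members had fewer fragments than the median of 16 in their list, which 48.7% of NFKB2 regions exceed.

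Most ELF3 regions of the clusters had no NFKB2 region. The share with one was 2 of 17, or 11.8% (exact interval 1.46 to 36.4), against 19.7% of all ELF3 regions; the background lies inside the interval. By quintile of −log10 q, the share in the whole list ran from 2.95% in the lowest through 6.17, 12.3 and 24.6% to 52.3% in the highest. Members fell at 2, 3, 5, 5 and 2 in these quintiles. Both shared members stood in the middle quintile and the one above it, while the 2 members of the highest quintile, those with 60 and 94 fragments, had no NFKB2 region. Regions tied at a quintile limit were placed in list order, which bears on 2 members. The shared chromosome 5 region lay at the limit between the middle quintile and the one below it. An unshared chromosome 5 region, with 12 fragments and a −log10 q of 6.79, lay at the limit between the lowest quintile and the next. The fewest fragments of any NFKB2 region at the lowest background were 8, so weaker NFKB2 signal at the 15 unshared members would not be listed.

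**Figure D4:**
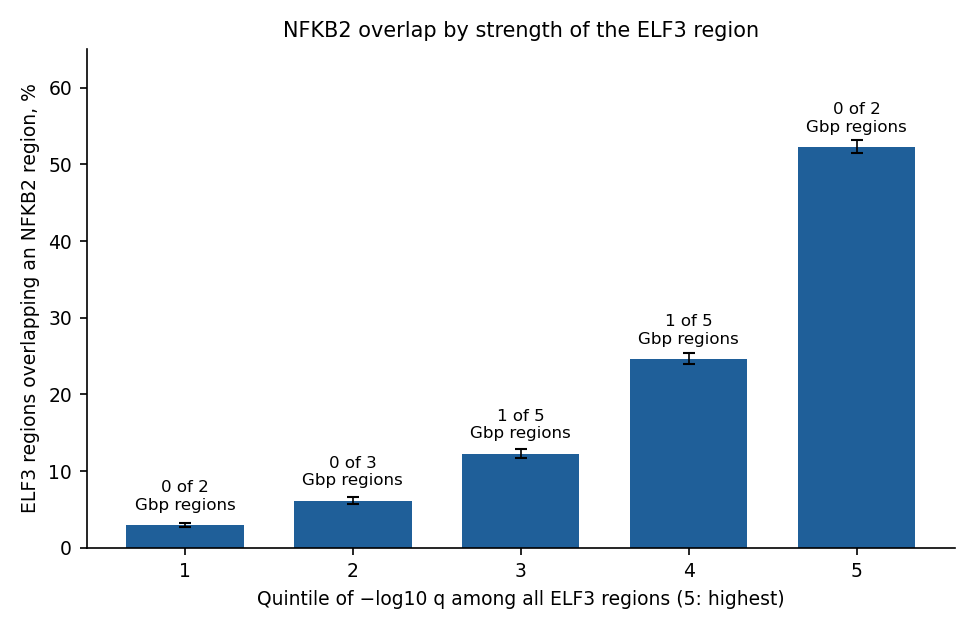
Share of all ELF3 regions that overlap an NFKB2 region (vertical axis, percent, with exact 95% binomial intervals) by quintile of −log10 q (horizontal axis); labels give the members of the Gbp clusters that overlap NFKB2 among those in each quintile. The bars climb from 2.95 to 52.3%, and the 2 members in the highest quintile show no overlap.

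The window edges decide which regions are members. The ELF3 region just inside the lower edge on chromosome 3 had 29 fragments and the nearest one outside, 30.7 kb beyond the edge, had 19. Inside the upper edge the last ELF3 region had 35 fragments, and the first outside, chr3:142406201-142407060 at 42.2 kb, had 91 with an NFKB2 region of 25 fragments. On chromosome 5 the outermost ELF3 regions inside had 24 and 28 fragments, and the nearest outside, at 36.0 and 86.0 kb, had 13 and 18. The nearest NFKB2 regions outside that window lay 652 kb below it and 181 kb above it. On chromosome 3 they lay 50.2 kb below and 42.7 kb above. Measured between summits, the NFKB2 member on chromosome 5 was 852 kb from the next NFKB2 region below and 201 kb from the next above, and the member on chromosome 3 107 and 171 kb. Over the whole NFKB2 list the median distance between neighbouring summits was 45.6 kb (quartiles 14.1 and 133.5 kb).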

How the data were processed

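CUT&RUN regions were analysed from 2 libraries, 1 for ELF3 and 1 for NFKB2, grouped by the labels. The submitters' processing notes name MACS2 as the caller and mm10 as the build; its version and settings, and the aligner, are not given in these sources. Deposited for each region were a score (10 times −log10 q), the fold as a ratio of summit signal to local background, −log10 p and −log10 q, and a summit.

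Fragments and local background were solved from the deposited fold and −log10 p as whole fragments under MACS2's Poisson model, within 0.01 of −log10 p (scaled up for values over 100), for all but 1 region in each list. A fragment was worth 1 unit for ELF3 and 0.964 for NFKB2. Depth came to 10.1 and 10.6 fragments per kb of the caller's genome size, and the ratio 1.04 was used to adjust NFKB2 over ELF3 ratios. Recovery was right for 100% of 4000 simulated regions per library. These were generated with the formula that the recovery inverts, from values recovered here. The check therefore covers the inversion only, not whether the deposited values follow the formula. Regions were shared at 1 bp of overlap. Shares have exact Clopper-Pearson intervals, fragments exact Poisson ones and ratios exact binomial ones. Densities use the 2564 Mb between the outermost regions of autosomes and X. Promoters and gene order came from RefSeq tables of GRCm38.p6. Python 3.11.15 and SciPy 1.17.1 were used.

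The members, the windows and the lists were chosen with earlier results of these data known. By rule, the text names every NFKB2 member with its ELF3 partner and the 5 ELF3 members of highest −log10 q per window. The planned counts at gene starts, motifs in region sequences and other interferon-γ pathway genes would need GRCm39 sequence and annotation and were not run. Alternatives were stricter −log10 q, wider windows, other overlap rules, other ratios and the cluster's own chromosome.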

Additional observations from a re-analysis of the deposited data

How the results depend on the processing

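Of 59 alternative values for 16 results, 48 stayed within 1.5 times of a count or within the counting interval of another value, and 11 moved. Some of the 48 could not move, because each NFKB2 member has 1 ELF3 partner and lies wholly inside it. Other intervals were wide, such as 15.8 to 100% for the share of NFKB2 members on ELF3, so staying inside them says little. All values that moved are NFKB2 counts, cover and density or the share overlapping NFKB2. With −log10 q of 5 or more, the NFKB2 count, cover and relative density on chromosome 3 went from 1 region, 0.117% and 0.982 to 0 each. With −log10 q of 10 or more they were 0 in both clusters (from 0.0776% and 0.825 for cover and density on chromosome 5), and the share of ELF3 members with NFKB2 went from 11.8% to 0 of 12; fewer regions pass by construction. The share of NFKB2 members on ELF3 then has no value. Widening the windows by 50 kb gave 2 NFKB2 regions on chromosome 3, since the window is longer. ELF3 counts of 10 and 7 ranged from 7 to 13 and from 5 to 9. Summits within 100 bp left 1 of 17 ELF3 members shared. No paired analysis was possible because each antibody has 1 library, and no library could be left out. Weak regions are not listed, so absence of an NFKB2 region is not absence of binding.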
